A study of Mus musculus with 18 samples.

Results

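Avpr1a encodes the V1a receptor for vasopressin, and it is 1 of the 54532 genes in a table of liver expression values (FPKM, fragments per kilobase of gene, scaled to the library, a level corrected for gene length and library size). The gene was taken from the table by its name and was chosen with its levels in these mice known, so its own levels are described and not tested. The livers came from 18 male C57BL/6 mice (C57BL/6J in the methods of the study) that arrived at 6 weeks of age. Normal control mice (NC, n = 6) ate standard chow. HFD control mice (HFD, n = 6) ate a high-fat diet for 14 weeks and then received saline with the diet, and SZ-A mice (SZ-A, n = 6) received SZ-A with the same diet. SZ-A is the alkaloid fraction of Ramulus Mori, the twig of mulberry, and its main alkaloid is 1-deoxynojirimycin. The treatment time is 8 weeks in the deposited design and 6 weeks in the study's methods, and neither names the dose or the route used for the sequenced mice. The mice were fasted overnight before the liver was taken, and whole liver was sequenced, so each value sums over all cells of the organ. The mouse NC6 is titled as a chow mouse but carries a high-fat diet label. It was kept in NC, and the values of Avpr1a are also given without it.

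Vasopressin is made in the hypothalamus and reaches the liver through the blood. On hepatocytes it binds the V1a receptor, which acts through Gq proteins and phospholipase C beta. Phospholipase C makes inositol trisphosphate (IP3), which releases calcium from stores inside the cell, and diacylglycerol, which activates protein kinase C. The calcium signal activates phosphorylase kinase and with it glycogen phosphorylase, so the classical hepatic effect of vasopressin is glycogen breakdown and glucose release. In rodent liver, vasopressin binding is strongest in the hepatocytes around the central vein. Angiotensin II, noradrenaline and extracellular ATP reach the same calcium signal through receptors of their own.

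Avpr1a (ENSMUSG00000020123) lies on the plus strand of chromosome 10 at chr10:122448499-122453452 (GRCm38, GENCODE M21). It has 2 exons of 1291 and 1379 bases, an intron of 2284 bases and a reading frame of 423 codons. The exons add up to the 2670 bases that the table uses as its length. The 250 bases before the annotated start are shown because the transcript level of the gene is the quantity compared here. They lie at chr10:122448249-122448498 on the plus strand (RefSeq, GRCm38.p6), and capitals mark the 2 motifs found among the 4 that were searched on both strands.

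Avpr1a promoter: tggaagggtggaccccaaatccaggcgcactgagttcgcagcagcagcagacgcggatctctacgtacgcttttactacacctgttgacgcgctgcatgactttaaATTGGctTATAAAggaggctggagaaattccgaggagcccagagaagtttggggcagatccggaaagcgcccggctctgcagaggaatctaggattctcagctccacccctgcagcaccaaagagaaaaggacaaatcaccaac

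The letters TATAAA start 137 bases before the annotated start on the strand of the gene, and 12.4% of 32851 mouse promoters of this length hold them on either strand. The letters CCAAT are present once, on the opposite strand (ATTGG as printed), 144 bases before the start, and 33.8% of promoters hold them. The letters GGGCGG, found in 32.7% of promoters, and TGACGTCA, found in 1.55%, had no match in the window. The GC content was 53.6%, against a median of 52.4% over all promoters.

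Avpr1a was lower in every HFD liver than in every NC liver, and SZ-A livers lay within or just below the NC range. In NC mice the level was 8.45, 12.0, 16.1, 9.52, 20.2 and 10.04 FPKM in NC1 to NC6. In HFD mice it was 3.23, 4.35, 5.51, 2.88, 3.62 and 5.07 FPKM in HFD1 to HFD6. The highest HFD liver therefore lay below the lowest NC liver. In SZ-A mice it was 12.0, 8.30, 8.94, 14.97, 11.5 and 11.1 FPKM in SZ-A1 to SZ-A6. All 6 SZ-A livers lay above all HFD livers, and only SZ-A2 lay below all NC livers.

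**Figure D1:**
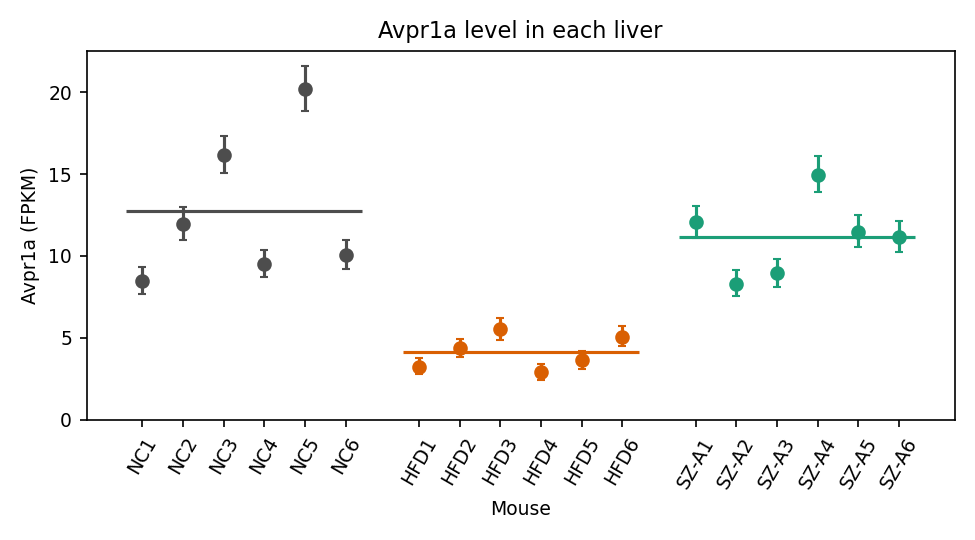
Avpr1a level (FPKM, linear axis from 0) in each of the 18 livers. Points are mice, bars are exact 95% Poisson intervals of the fragment count, and horizontal lines are group means (12.7 in NC, 4.11 in HFD, 11.1 in SZ-A). The 6 HFD livers sit below all others.

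The mean level was 12.7 ± 4.55, 4.11 ± 1.05 and 11.1 ± 2.39 FPKM (SD, n = 6 each) in the NC, HFD and SZ-A livers. All later values after ± are SDs over the 6 mice of a group. Without NC6 the NC mean was 13.3 ± 4.88 FPKM (SD, n = 5). The HFD mean was 32.3% of the NC mean, and the SZ-A mean was 2.71 times the HFD mean and 87.6% of the NC mean. On the scale of log2(FPKM + 0.1), the mean difference was -1.57 for HFD minus NC (-1.63 without NC6), 1.43 for SZ-A minus HFD and -0.15 for SZ-A minus NC (-0.20 without NC6). The SDs of the groups on that scale were 0.48, 0.36 and 0.30 in the NC, HFD and SZ-A livers, so the difference between SZ-A and NC was smaller than the spread within either group.

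These levels rested on 397 to 873 fragments per NC liver, 153 to 285 per HFD liver and 436 to 723 per SZ-A liver, out of 17163191 to 20493907 fragments on genes. The least certain value, HFD4, had a 95% counting interval of 2.44 to 3.38 FPKM, and the most abundant, NC5, one of 18.9 to 21.6 FPKM. NC mice varied most among themselves, with a coefficient of variation of 35.8%, against 25.5% in HFD and 21.4% in SZ-A mice. NC5 and NC3 were the high mice of the NC group, and the difference between SZ-A and NC was 0.0001 without NC5. Among the 22046 protein-coding genes of a liver, ordered from the most abundant, Avpr1a stood between place 1816 and 3446 in NC livers, 4549 and 6577 under the diet alone, and 2306 and 3502 with SZ-A.

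The rest of the transcriptome gives the scale of these differences. Among the 10216 genes with a mean of at least 1 FPKM, the ranges of HFD and NC mice did not overlap for 10.5%, those of SZ-A and HFD mice for 1.28%, and those of SZ-A and NC mice for 5.5%. Ordered by log2 difference, Avpr1a was the 52nd lowest of these genes for HFD minus NC and the 28th highest for SZ-A minus HFD. The HFD mice are part of both comparisons, so these places are not independent of each other. The factor between the library size used by the authors and the fragments on genes was 0.9983 to 1.1414 in HFD, 0.9325 to 1.0248 in NC and 0.9718 to 1.0468 in SZ-A mice. After rescaling each mouse to a common sum, Avpr1a was still lower in all HFD livers (3.22 to 5.93 FPKM) than in the lowest NC liver (8.27) and the lowest SZ-A liver (8.55).

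The neighbouring genes were mostly at low levels in liver. Of 18 other genes within 500 kb, 16 had a mean under 1 FPKM and were not tested. The other two were Tmem5, which encodes a glycosyltransferase, and the non-coding transcript Gm36041, which ends 13466 bases before the start of Avpr1a on the same strand. Gm36041 was at 1.26 ± 0.728, 2.60 ± 1.16 and 1.49 ± 0.999 FPKM in the NC, HFD and SZ-A livers (SD, n = 6 each). Its log2 fold change was 1.06 for HFD against NC (limma, adjusted p = 0.067) and -0.85 for SZ-A against HFD (adjusted p = 0.324), and neither passed the threshold. Tmem5 was 0.27 lower on the log2 scale in HFD than in NC mice (limma, adjusted p = 0.0473). That call was present in 6 of 20 alternative settings. The antisense gene Gm48877 spans Avpr1a on the minus strand at a mean of 0.248, 0.449 and 0.408 FPKM in the NC, HFD and SZ-A livers. None of its 3 exons overlaps an exon of Avpr1a (0 overlaps), so the 2 genes share no counted bases.

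No other vasopressin or oxytocin receptor came near this level. Avp (vasopressin) and Avpr1b (the pituitary V1b receptor) had 0 fragments in all 18 livers, which allows levels of up to 0.321 and 0.0461 FPKM per liver (3 fragments in the shallowest). Avpr2 (the renal V2 receptor) was above 0 in 6 of 18 livers with a highest value of 0.0566 FPKM, Oxtr (the oxytocin receptor) in 6 of 18 with a highest value of 0.0237 FPKM, and Oxt (oxytocin) in 1 of 18. Lnpep, a membrane aminopeptidase that cleaves oxytocin and vasopressin, was at 2.98 ± 0.553, 3.01 ± 0.184 and 2.61 ± 0.363 FPKM in the NC, HFD and SZ-A livers. It passed the test in none of the 3 comparisons (limma, adjusted p = 0.861, 0.309 and 0.464 for HFD against NC, SZ-A against HFD and SZ-A against NC).

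The receptors that share the calcium signal followed other patterns. Agtr1a, the angiotensin II type 1a receptor, was the most abundant of 10 calcium-mobilising receptors in each group. Its lowest, median and highest values were 26.8, 32.5 and 34.0 FPKM in NC livers, then 12.6, 15.9 and 20.2 FPKM under the diet alone and 13.9, 16.6 and 21.4 FPKM with SZ-A. All HFD and all SZ-A livers thus lay below all NC livers, and the HFD and SZ-A ranges overlapped. Agtr1a fell by 0.94 on the log2 scale in HFD against NC (SE 0.12, limma, adjusted p = 0.000218) and by 0.83 in SZ-A against NC (SE 0.12, adjusted p = 0.00164). The log2 fold change for SZ-A against HFD was 0.10 with a 95% interval of -0.19 to 0.39 (adjusted p = 0.764). The corresponding Avpr1a difference, 1.43, is given beside it without a test.

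Adra1b, the alpha-1B adrenergic receptor through which noradrenaline acts on hepatocytes, went the other way under the diet. Its lowest, median and highest values were 3.09, 6.85 and 11.6 FPKM in NC livers, then 9.26, 13.1 and 15.8 FPKM under the diet alone and 6.39, 12.5 and 13.9 FPKM with SZ-A. The NC and HFD ranges overlapped, with 5 of 6 HFD livers above all NC livers. The overlap came only from NC6, the mouse with the high-fat diet label. The other NC livers lay at 3.09 to 7.97 FPKM, below the lowest HFD liver. For Avpr1a and Agtr1a, NC6 (10.04 and 33.4 FPKM) lay above all HFD livers. Adra1b rose by 1.01 on the log2 scale in HFD against NC (SE 0.26, limma, adjusted p = 0.0134). The log2 fold change for SZ-A against HFD was -0.19 with a 95% interval of -0.58 to 0.20 (adjusted p = 0.67), and for SZ-A against NC it was 0.83 (adjusted p = 0.0831). Adra1b was called for SZ-A against NC in 4 of 20 alternative settings, among them the fit without NC6. Of the 9 other receptors tested, Adra1b was the only gene called higher and Agtr1a the only gene called lower in HFD against NC. The log2 fold change was above 0 in 8 of the 9 there, with a median of 0.22. None of the 9 passed the test for SZ-A against HFD. The share of all tested genes called was 20.2% for HFD against NC (34.8% before adjustment), 0.147% (0.0783% higher and 0.0685% lower) for SZ-A against HFD and 9.6% for SZ-A against NC.

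The remaining receptors changed less. F2r (the thrombin receptor) was at 9.59 ± 1.64, 11.8 ± 2.19 and 10.8 ± 1.40 FPKM in NC, HFD and SZ-A mice. The purinergic receptors P2ry2, P2ry1 and P2ry4 had group means of 4.06 to 4.60, 2.71 to 3.08 and 1.26 to 1.73 FPKM. Those of the endothelin receptors were 3.54 to 4.12 FPKM for Ednrb and 1.13 to 1.52 FPKM for Ednra, and those of Adra1a (the alpha-1A adrenergic receptor) were 0.949 to 1.19 FPKM. None of these 7 genes passed the test in any of the 3 comparisons.

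**Figure D2:**
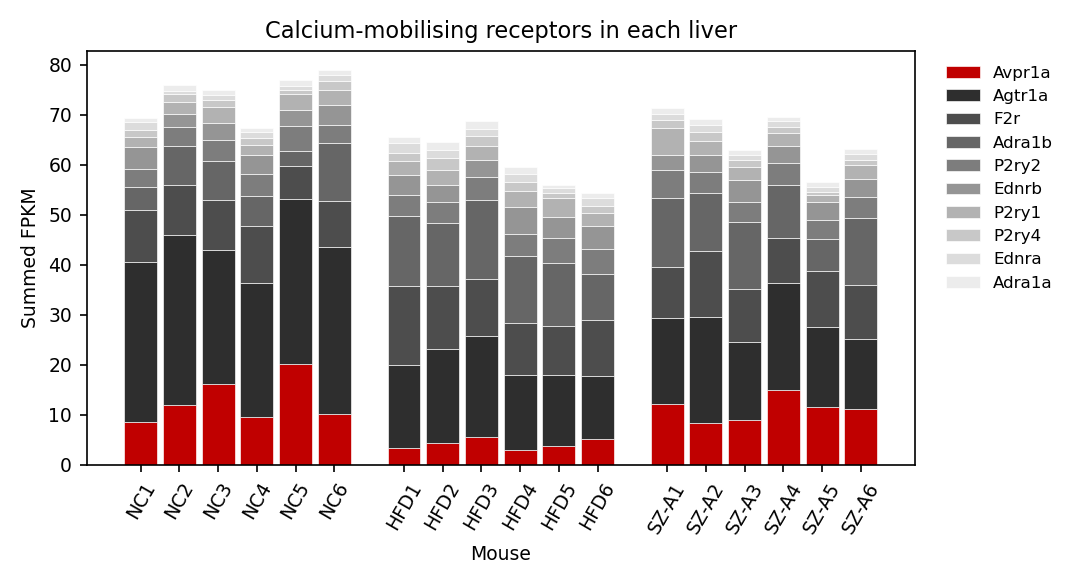
Summed FPKM (bar height, linear axis from 0) of 10 calcium-mobilising receptors in each liver. Avpr1a is red at the base and the other 9 are stacked above it in shades of grey. The red segment is 4.85% to 9.35% of the bar in HFD mice, 12.2% to 26.2% in NC mice and 12.0% to 21.6% in SZ-A mice.

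The make-up of the receptor set therefore differed between the groups. Avpr1a held a median of 14.96% of the summed FPKM of the 10 receptors in NC (lowest 12.2%, highest 26.2%), 6.61% in HFD (4.85% to 9.35%) and 17.3% in SZ-A livers (12.0% to 21.6%). A share within a liver does not depend on how the liver's library was scaled. The ratio of Avpr1a to Adra1b was 0.870 to 6.54, 0.216 to 0.547 and 0.667 to 1.79 in the NC, HFD and SZ-A livers. By group mean, Avpr1a was the second most abundant receptor of NC livers, the sixth of HFD livers and the third of SZ-A livers. Among NC livers its range overlapped those of F2r (6.61 to 11.5 FPKM) and Adra1b and lay below that of Agtr1a. In HFD its range overlapped those of P2ry2 (4.17 to 5.10), Ednrb (3.32 to 5.29) and P2ry1 (2.47 to 3.93). In SZ-A it overlapped those of Agtr1a, Adra1b and F2r (8.998 to 13.3).

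Beside Avpr1a, 93 genes in 7 lists covered the vasopressin pathway, from the ligands and related receptors to glucose production. Of these, 67 had a mean of at least 1 FPKM. In HFD against NC, 10 of the 67 rose and 7 fell, which is 25.4% against 20.2% of all tested genes (10.7% higher and 9.49% lower). After rescaling to a common sum per mouse, 20 rose and 4 fell. That scaling called 2100 of all 10216 tested genes higher and 334 lower. In SZ-A against HFD, 0 of 67 passed the test (limma), and 0 passed it with voom on fragments. Before adjustment, 13 genes had a p under 0.05, 7 higher and 6 lower, or 19.4% against 14.8% of all tested genes (8.74% higher and 6.09% lower). In SZ-A against NC, 6 rose and 2 fell, which is 11.9% against 9.6% (5.31% higher and 4.3% lower). Without NC6, 16 of the 67 passed for HFD against NC and 6 for SZ-A against NC. The median log2 fold change of the 67 genes was 0.07, -0.02 and 0.03 in these comparisons, and that of all tested genes -0.03, 0.03 and -0.01.

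**Figure D3:**
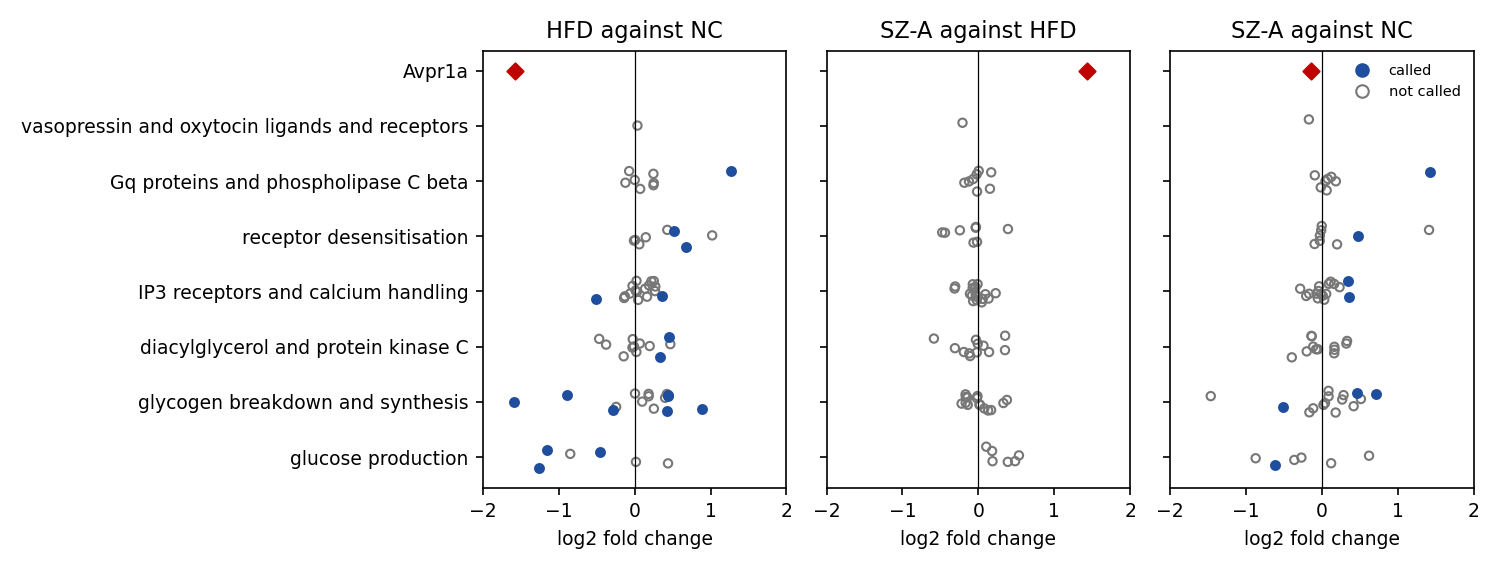
Log2 fold changes (x axis) of the 67 tested pathway genes, 1 row per list, in HFD against NC (left), SZ-A against HFD (middle) and SZ-A against NC (right). Filled blue points passed the test, open grey points did not, and the red diamond is Avpr1a, which was not tested. In the middle panel no pathway gene is filled, and all have changes smaller in size than that of Avpr1a (1.43).

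At the level of the G protein, Gna14, a Gq-class alpha subunit, rose from 0.563 ± 0.140 FPKM in NC livers to 1.59 ± 0.761 with the diet alone and 1.69 ± 0.428 with SZ-A. Its log2 fold change was 1.27 for HFD against NC (limma, adjusted p = 0.00403) and 1.42 for SZ-A against NC (adjusted p = 0.00158). Gna14 averaged under 1 FPKM in NC livers and entered the tested genes through its HFD and SZ-A levels. Both calls were present in 20 of 20 alternative settings, among them the fit without that limit on the mean. The more abundant alpha subunits Gna11 and Gnaq and the phospholipase Plcb3 passed no test. Gna11 was at 17.3, 18.1 and 18.1 FPKM and Gnaq at 4.41, 4.10 and 4.04 FPKM in NC, HFD and SZ-A mice. Plcb3 was at 5.03, 5.04 and 4.97 FPKM.

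Among the genes that end receptor signalling, Rgs2 and Rgs5, which encode proteins that speed up the shutdown of Gq and Gi proteins, rose in HFD against NC. Rgs2 was at 1.22 ± 0.192, 2.03 ± 0.478 and 1.42 ± 0.302 FPKM in the NC, HFD and SZ-A livers, with a log2 fold change of 0.68 for HFD against NC (limma, adjusted p = 0.00953) and of -0.48 for SZ-A against HFD (adjusted p = 0.198). Rgs5, which is also a marker of pericytes and stellate cells, had a log2 fold change of 0.51 for HFD against NC (adjusted p = 0.00341). The receptor kinases Grk2 and Grk6 and the arrestins Arrb1 and Arrb2 passed no test.

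In calcium handling, the IP3 receptors Itpr1 (2.93, 2.81 and 2.79 FPKM in NC, HFD and SZ-A) and Itpr2 (2.10, 1.90 and 1.80 FPKM) passed no test, and neither did the calcium pump Atp2a2 (50.04, 47.2 and 49.1 FPKM). Calm2, a gene for the calcium sensor calmodulin, fell by 0.52 on the log2 scale in HFD against NC (limma, adjusted p = 0.0036). Of the protein kinase C genes, Prkce and Prkcd rose by 0.34 and 0.45 in HFD against NC (adjusted p = 0.025 and 0.0417), and the call of Prkcd was present in 9 of 20 alternative settings. Prkcd was at 1.82, 2.50 and 1.64 FPKM in NC, HFD and SZ-A mice, with a log2 fold change of -0.59 for SZ-A against HFD (adjusted p = 0.0961).

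The genes of glycogen metabolism, on which the vasopressin signal acts in hepatocytes, held 7 of the 17 calls of the pathway lists. In HFD against NC, 4 of 15 rose and 3 fell, or 46.7% against 20.2% of all tested genes (10.7% higher and 9.49% lower). After rescaling to a common sum, 6 rose and 2 fell, beside 2100 higher and 334 lower among all 10216 tested genes. Gbe1, the branching enzyme, was at 12.3 ± 0.781, 22.9 ± 2.13 and 20.5 ± 3.49 FPKM in the NC, HFD and SZ-A livers, with a log2 fold change of 0.89 for HFD against NC (limma, adjusted p = 2.15e-05). Pygl, the liver glycogen phosphorylase, rose from 33.3 ± 3.34 FPKM in NC to 45.5 ± 8.71 with the diet alone and 45.6 ± 3.26 with SZ-A (adjusted p = 0.0224 and 0.00469 against NC). Gys2, the liver glycogen synthase, fell from 113 ± 21.9 FPKM in NC to 60.03 ± 8.05 in HFD (adjusted p = 0.000608) and was at 78.02 ± 11.3 in SZ-A mice (adjusted p = 0.0271 against NC and 0.159 against HFD). Phkg2, the catalytic subunit of liver phosphorylase kinase, fell by 0.28 (adjusted p = 0.0493), a call present in 4 of 20 alternative settings.

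In glucose production, 3 of 6 genes fell in HFD against NC and none rose. After rescaling to a common sum, only Pck1 kept its call, and Fbp1 and G6pc had adjusted p = 0.079 and 0.0505 (limma). That scaling called 334 of all 10216 tested genes lower. Pck1, which encodes the cytosolic phosphoenolpyruvate carboxykinase, was at 1167 ± 238, 525 ± 95.6 and 762 ± 145 FPKM in the NC, HFD and SZ-A livers, and its log2 fold change was -1.15 for HFD against NC (limma, adjusted p = 0.000253), 0.54 for SZ-A against HFD (adjusted p = 0.133) and -0.61 for SZ-A against NC (adjusted p = 0.0236). Fbp1 (fructose bisphosphatase) fell by 0.46 and G6pc (glucose-6-phosphatase) by 1.26 in HFD against NC (adjusted p = 0.00818 and 0.0305), and the call of G6pc was present in 11 of 20 alternative settings. All 6 genes had a log2 fold change above 0 for SZ-A against HFD, with a median of 0.29, and 0 passed the test (limma and voom). At an unadjusted p under 0.05 there were 3 of the 6, beside 14.8% of all tested genes. After rescaling to a common sum the median was 0.11, and Pcx (pyruvate carboxylase) was at -0.07.

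Among 13 other hormone receptors of hepatocytes, Ghr (growth hormone) and Thrb (thyroid hormone) rose in HFD against NC, by 0.66 and 0.50 on the log2 scale (limma, adjusted p = 0.0408 and 0.0137). In that comparison 23.1% of the 13 were called, higher or lower, near the 20.2% of all tested genes. The call of Ghr was present in 10 of 20 alternative settings and that of Thrb in 20. After rescaling to a common sum, 4 of the 13 rose and 1 fell, beside 2100 higher and 334 lower among all 10216 tested genes. Lepr (leptin) fell by 3.06 in HFD against NC (adjusted p = 0.000855) and by 2.70 in SZ-A against NC (adjusted p = 0.00546). Gcgr, the glucagon receptor, was at 94.0, 85.7 and 98.3 FPKM in NC, HFD and SZ-A mice, and Insr, the insulin receptor, at 13.5, 11.6 and 11.9 FPKM. Neither passed the test. None of the 13 passed it for SZ-A against HFD.

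Vasopressin binding is a pericentral trait of rodent liver, so the zonation genes are given beside Avpr1a. Of 24 pericentral genes, 9 rose and 2 fell in HFD against NC, or 45.8% against 20.2% of all tested genes (10.7% higher and 9.49% lower). Their median log2 fold change was 0.31. After rescaling to a common sum, 12 rose and 0 fell, beside 2100 higher and 334 lower among all 10216 tested genes. Glul (glutamine synthetase), the classical pericentral marker, rose by 0.62 (limma, adjusted p = 0.000762), from 296 ± 34.6 FPKM in NC to 453 ± 38.8 in HFD, and was at 449 ± 29.3 FPKM in SZ-A mice. Of 20 periportal genes, 3 rose and 13 fell (80.0% called), with a median of -0.89 (5 and 10 after the rescaling). The urea cycle genes Asl, Cps1 and Ass1 fell by 1.999, 1.40 and 1.08 (adjusted p = 0.000152, 0.000152 and 0.000282). In SZ-A against HFD, 0 of the 24 and 0 of the 20 passed the test (limma and voom), with medians of 0.05 and -0.06. At an unadjusted p under 0.05 there were 6 of the 24 (3 higher and 3 lower) and 7 of the 20 (4 higher and 3 lower). Both shares were above the 14.8% of all tested genes. Measured against the mean log2 level of the pericentral genes of the same mouse, the Avpr1a difference was -1.99 for HFD minus NC, 1.45 for SZ-A minus HFD and -0.54 for SZ-A minus NC.

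Hepatocyte markers were abundant in every liver, with Alb (albumin) at a mean of 29450, 21470 and 24030 FPKM in the NC, HFD and SZ-A livers. Of 15 hepatocyte genes, 4 fell and 0 rose in HFD against NC, or 26.7% against 20.2% of all tested genes (9.49% lower). The median log2 fold change of the 15 genes was -0.22 (-0.03 after rescaling to a common sum). Their summed level was 52912 to 76188, 38072 to 60326 and 45639 to 71324 FPKM in the NC, HFD and SZ-A livers. In SZ-A against HFD, 0 of the 15 passed the limma test, and voom called 1 gene, Apoa1. At an unadjusted p under 0.05 there were 4 (26.7%, against 14.8% of all tested genes). The median for SZ-A against HFD was 0.13 (-0.05 after the rescaling). Fewer cells of a type and less RNA per cell cannot be told apart in whole liver. Measured against the mean log2 level of the hepatocyte genes of the same mouse, the Avpr1a difference was -1.28 for HFD minus NC and 1.23 for SZ-A minus HFD.

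Markers of other liver cells are given beside the 20.2% of all tested genes that were called in HFD against NC. Of 12 Kupffer cell and macrophage genes, 7 (58.3%) rose in HFD against NC and none fell, and the summed level of all 15 listed genes was 234 to 415, 396 to 631 and 361 to 511 FPKM in the NC, HFD and SZ-A livers. Cd68, a lysosomal protein of macrophages, was the only listed gene that passed the test for SZ-A against HFD (log2 fold change -0.64, limma, adjusted p = 0.0451), a call present in 9 of 20 alternative settings. Of 14 stellate cell genes, 10 (71.4%) rose in HFD against NC and the summed level was 112 to 144, 144 to 232 and 134 to 184 FPKM in NC, HFD and SZ-A mice. Of 11 endothelial genes, 2 (18.2%) rose, a share near the background. Among adipocyte genes, 2 of 3 rose, and of 3 cholangiocyte genes, 1 rose. Of 3 smooth muscle genes, a cell type that also carries V1a receptors in blood vessels, 0 passed the limma test in HFD against NC and 0 were at an unadjusted p under 0.05 (voom 0), and the summed level of all 8 listed genes was 7.60 to 15.3, 8.43 to 10.6 and 8.23 to 14.4 FPKM in the NC, HFD and SZ-A livers. The part of these cells in the Avpr1a difference was not tested.

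The genes whose levels were most like those of Avpr1a were found by Pearson's r of log2(FPKM + 0.1) over the 18 livers, among 10215 other genes. This is a description without a test, since the genes were picked by the measure itself and the points share their libraries and groups. The highest value was that of Igfbp2, an insulin-like growth factor binding protein secreted by the liver, with r = 0.90 and Spearman's rho = 0.86. Igfbp2 was at 802 ± 142, 244 ± 38.1 and 625 ± 151 FPKM in the NC, HFD and SZ-A livers. It was followed by Pcyt2 (phosphatidylethanolamine synthesis), Pnpla7 (a lysophospholipase), Rbp4 (the retinol carrier), B930025P03Rik, Entpd8 (an ectonucleotidase of the bile canaliculus), Apoa1 (the main protein of high-density lipoprotein), Pfdn6 (a prefoldin subunit), Grb14 (an inhibitor of insulin receptor signalling) and Cadm4 (a cell adhesion molecule), with r from 0.88 down to 0.84. Without the 2 livers farthest from the median Avpr1a level, HFD4 and HFD1, these 10 values lay between 0.74 and 0.89.

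At the other end stood Vat1 (a vesicle membrane protein) with r = -0.92 and rho = -0.92, and then Ppt1, Lpl, Lgmn and Arsb with r from -0.88 to -0.87. Ppt1, Lgmn and Arsb encode lysosomal enzymes, and Lpl encodes lipoprotein lipase. Vat1 was at 10.02 ± 1.43, 15.1 ± 2.21 and 11.3 ± 1.12 FPKM in the NC, HFD and SZ-A livers. Without HFD4 and HFD1 its r was -0.86.

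A pooled r over 3 groups includes the differences between the groups. After subtraction of the group means, r fell to 0.40 for Igfbp2 and lay between 0.39 and 0.56 for the 10 genes, while Vat1 kept a value of -0.78. Within the groups, r with Vat1 was -0.84, -0.72 and -0.79 for NC, HFD and SZ-A mice, respectively (n = 6 each). For Igfbp2 it was 0.63, -0.30 and 0.77. The 5 highest values after subtraction of the group means were those of Tbc1d17 (a Rab GTPase regulator) at 0.80, Slc7a6os at 0.79, Siah1a (a ubiquitin ligase) at 0.78, Frat1 (a regulator of Wnt signalling) at 0.77 and Gfod2 at 0.77. Without NC5, the liver with the highest Avpr1a level, these 5 values were 0.72, 0.70, 0.70, 0.67 and 0.73 and that of Vat1 was -0.72. None of the 10 genes with the highest pooled r was among the 10 highest after subtraction of the group means (0 shared).

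**Figure D4:**
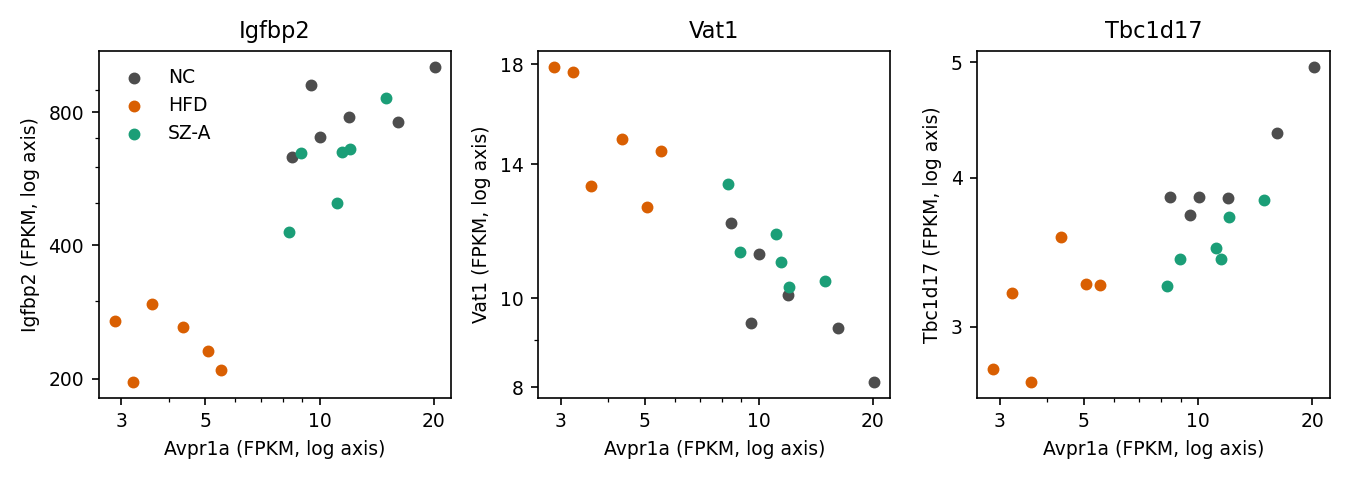
Levels of Igfbp2 (left), Vat1 (middle) and Tbc1d17 (right) against Avpr1a in the 18 livers (FPKM, log axes on both), with NC in grey, HFD in orange and SZ-A in green. Igfbp2 separates the HFD livers from the others as Avpr1a does but has no common trend within HFD (r = -0.30), while Vat1 declines with Avpr1a within each group and Tbc1d17 rises with it (r within groups 0.60 to 0.93).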

How the data were processed

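Poly-A RNA of 18 mouse livers was sequenced. The authors deposited 1 table of FPKM for 54532 genes with gene length and position. The submitters' processing notes name HISAT2 2.0.5, featureCounts 1.5.0-p3 and mm10, with no batch in the labels. Multiplied by gene length and divided by 1 step per mouse (the value of 1 fragment), 100% of the FPKM values above 0 were whole fragments within a tolerance of 0.05. Counting intervals are exact Poisson at 95% and cover counting error only. No 2 mice of a group were duplicates.

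Avpr1a, the gene lists and the naming rule (the 4 smallest adjusted p among called genes and the 3 most abundant members per list, the receptors, genes within 500 kb, and the genes most and least correlated) were chosen with earlier results of these data known. Some genes under the rule are given by counts only or are not reported here. Arrb1, Grk6, Itpr1 and Itpr2 and the zonation and cell type examples outside the rule were chosen after their values were seen.

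Log2(FPKM + 0.1) was tested with limma 3.58.1 in R 4.3.3 (lmFit, eBayes with trend) in the 10216 genes that averaged 1 FPKM or more, 2 groups at a time and without covariates, in place of the authors' DESeq2, since the deposited unit is FPKM. A call needed a p under 0.05 after Benjamini-Hochberg adjustment over all genes and a fold change above 1.2. The fit was tested on simulated data. Alternatives were pseudocounts of 1 and 0.01, 2 scalings, no filter, all 18 mice in 1 fit, a replicate block, voom on fragments and each mouse left out. Levels relative to the hepatocyte and pericentral genes were chosen after seeing the data.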

Additional observations from a re-analysis of the deposited data

Results flagged for a closer look

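Among Avpr1a, the receptors and the correlated genes, 93 groups of 6 livers were searched for a liver far from the other 5, and 12 groups held one. Chance gives about 1 in 20 in independent groups, but 11 of the 12 belong to genes picked for their correlation with Avpr1a over the same livers, so that rate is no measure of these. Avpr1a itself had none. Of these 12, 6 were in NC5, the liver with the highest Avpr1a level. NC5 was high for Pcyt2 (98.59 FPKM, others up to 76.17), Apoa1 (13420 FPKM, others up to 8843), Grb14 (14.34 FPKM, others up to 10.2), Slc7a6os (6.599 FPKM, others up to 4.458), Siah1a (6.338 FPKM, others up to 3.788) and Frat1 (5.622 FPKM, others up to 3.182).

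SZ-A4, the SZ-A liver with the highest Avpr1a level, was high for Frat1 (3.87 FPKM, others up to 2.083), and SZ-A1 was high for P2ry2 (5.617 FPKM, others up to 4.308). Among HFD livers, B930025P03Rik was high in HFD6 (1.553 FPKM, others up to 0.6562), Entpd8 in HFD3 (28.18 FPKM, others up to 21.53) and Pfdn6 in HFD5 (19.73 FPKM, others up to 16.52). Ppt1 was low in NC3 (5.007 FPKM, others from 5.899).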

How the results depend on the processing

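The Avpr1a difference lay between -1.68 and -1.38 for HFD minus NC and between 1.25 and 1.52 for SZ-A minus HFD in the planned settings, and leaving out 1 mouse gave -1.68 to -1.43 and 1.34 to 1.52. For SZ-A minus NC it was -0.25 to 0.0001. Called pathway genes numbered 11 to 19 for HFD against NC with 1 mouse left out (11 without NC4), 0 to 0 for SZ-A against HFD and 4 to 11 for SZ-A against NC (5 without NC2, 4 without NC4 or without SZ-A6). The other listed genes numbered 43 to 56, 0 to 5 and 23 to 42. For SZ-A against HFD the single call became 0 calls without SZ-A1, SZ-A4, SZ-A6 or any of HFD1 to HFD4, 5 without HFD5, and 2 without HFD6 or SZ-A2. Cd68 itself was called in 9 of 20 alternatives. Without SZ-A5 the 1 call was Lyz2, and with all 18 mice in 1 fit it was Apoa1.

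Without the filter on low values, where 27266 genes were tested, pathway calls were 11 for HFD against NC and 4 for SZ-A against NC, and 0 other listed genes were called for SZ-A against HFD. Voom on fragments called 2 there. A common sum per mouse moved the median of all genes from -0.03 to 0.15 for HFD against NC and from 0.03 to -0.15 for SZ-A against HFD. The split of all calls moved from 1092 higher and 970 lower to 2100 and 334, and from 8 and 7 to 10 and 206. Under it 1 pathway gene (Prkcd) and 12 other listed genes were called for SZ-A against HFD. The cause of these shifts was not tested. Of the 10 genes most like Avpr1a, 3 were among the top 10 by Spearman's rho, and 5 to 10 remained with 1 mouse left out (5 without NC5, 6 without SZ-A4).

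The labels tie same-numbered mice by a number only. The correlation of same-numbered mice ran from -0.117 to 0.292. Whether they were paired or shared a batch was not tested. With a replicate block, 14, 0 and 11 pathway genes and 47, 0 and 37 other listed genes were called for HFD against NC, SZ-A against HFD and SZ-A against NC. The depth limits the vasopressin ligand and the other vasopressin receptors, which had at most a few fragments.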
